A study of Mus musculus with 12 samples.

Results

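The WNT ligand genes described here are Wnt4, Wnt5a, Wnt5b, Wnt6, Wnt7a, Wnt7b, Wnt9a, Wnt10a, Wnt10b and Wnt11. They were taken by gene symbol from a table of raw read counts, and all 10 of 10 were found among its 25210 genes. The table holds 19 Wnt genes in all, and the 9 others are given only for comparison. The counts come from primary mammary epithelial organoids, which are small pieces of ductal tissue grown in a gel, of virgin female FVB/N mice aged 8 to 11 weeks. Organoids in growth-factor-reduced Matrigel and minimal medium received the vehicle dimethyl sulfoxide (DMSO) or CHIR99021 at 1, 1.5 or 3 µM for 7 days. CHIR99021 inhibits the kinase GSK3 and was used to switch on WNT signalling through CTNNB1 (β-catenin). Each of 3 animals gave 1 culture, and each culture received all 4 treatments, which makes 12 libraries, with 3 in each group. Cultures are numbered 1, 2 and 3 after the replicate numbers of the labels, and no group carries a transgene or an engineered allele per the labels.

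WNT ligands are secreted, lipid-modified glycoproteins that bind Frizzled receptors together with a co-receptor. Some ligands are known mainly for stabilising β-catenin through LRP5 or LRP6, and others for signalling without β-catenin, for example through ROR receptors or the planar polarity proteins, although the receptor present can decide which branch is used. In the mammary gland WNT ligands are known for placode formation, ductal branching and the upkeep of basal progenitor cells. CHIR99021 acts inside the cell, after the ligand step, so the ligand genes were read here as genes that may change when the pathway is driven, not as its trigger.

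Library totals ran from 10.1 to 24.5 M counts (M, mega-counts). Axin2, a β-catenin target that served as a check of the treatment labels, had 2.26 to 3.24 counts per M (CPM) in the DMSO libraries and 52.4 to 132 at 3 µM. All 8 markers of mammary epithelium were detected in every group, with a summed level of 3706 to 6292 CPM in DMSO and 16791 to 33710 at 3 µM. The rise of that sum was not shared by all members: 3 of 8 were called higher and 2 lower, with a median log2 fold change of 0.39. Of 9 basal or myoepithelial markers 3 were higher and 6 lower (median −4.55), of 9 hormone-sensing luminal markers 3 were higher and 3 lower, and of 8 luminal progenitor or alveolar markers 1 was higher and 2 lower. Markers of other cells were present too. The summed fibroblast markers (9 genes) were at 1635, 7395 and 20549 CPM in DMSO in cultures 1, 2 and 3 and at 178, 978 and 4582 at 3 µM. The summed macrophage or immune markers (7 genes) ran from 251 to 2516 CPM in DMSO and from 39.9 to 119 at 3 µM, the endothelial ones from 244 to 507 and from 28.0 to 90.3, and the adipocyte ones from 3375 to 8990 and from 36.2 to 237. Squamous keratinocyte markers moved the other way, from 5.08 to 27.3 CPM in DMSO to between 2557 and 19846 at 3 µM, with culture 3 lowest. Of the markers tested at 3 µM against DMSO, 10 of 10 squamous ones were called higher, and 1 of 9 fibroblast, 4 of 5 macrophage or immune, 5 of 6 endothelial and 5 of 5 adipocyte ones were called lower. Over all genes tested, 29.9% were called higher and 27.7% lower in this comparison. The counts of the mammary epithelium, both luminal and the fibroblast lists lie near or below those shares. These are counts of calls only. The median log2 fold change was −2.06 for the fibroblast list, whose sum fell in every culture. It was −0.76 for the hormone-sensing luminal list and −0.58 for the luminal progenitor or alveolar list. At 3 µM no marker of these lists was at 0 in all 3 libraries. In bulk RNA, fewer cells of a type and less RNA per cell cannot be told apart, which holds for each difference below, and the part of these other cells in the ligand values was not tested.

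Upstream sequence was found in RefSeq (GRCm38.p6) for 7 of the 10 genes, in 10 windows that each cover the 250 bases before an annotated start. Wnt5a, Wnt7b and Wnt10a had no entry. The windows were searched on both strands for CTTTGA, which reads as TCAAAG on the other strand, the core letters recognised by TCF/LEF factors, the DNA-binding partners of β-catenin, with no other motif searched. It was present in 2 of the 10 windows, and 13.8% of 32851 windows of this length over all genes held it. The 4 windows shown are those of Wnt4 and Wnt7a, which rose with dose and hold no match, and the 2 with a match, printed in capitals. The match lies 50 bases before the outer start of Wnt11 and 71 bases before an internal start of Wnt5b, which fell. Wnt11 was called higher at 3 µM, a call that rested on culture 3 (values given below). The windows of Wnt4 (chr4:137277385-137277634, + strand), Wnt7a (chr6:91411354-91411603, − strand) and Wnt11 (chr7:98834862-98835111, + strand) hold 44, 34 and 37 CG dinucleotides, and that of Wnt5b (chr6:119449387-119449636, − strand) holds 7, against a median of 6 over all windows. Other windows of Wnt5b, without a match and not printed, hold 35 CG dinucleotides at the outer start of the gene (chr6:119544348-119544597) and 4 at a further internal start. Wnt11 also has a window at an internal start (chr7:98838595-98838844), not printed, with no match and 16 CG dinucleotides. A match is a description of these letters only.
Wnt4: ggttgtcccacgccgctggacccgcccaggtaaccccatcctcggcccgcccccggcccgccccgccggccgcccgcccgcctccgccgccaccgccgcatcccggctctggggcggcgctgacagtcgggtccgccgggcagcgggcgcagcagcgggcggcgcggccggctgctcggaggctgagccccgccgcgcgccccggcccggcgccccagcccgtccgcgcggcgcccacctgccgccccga
Wnt7a: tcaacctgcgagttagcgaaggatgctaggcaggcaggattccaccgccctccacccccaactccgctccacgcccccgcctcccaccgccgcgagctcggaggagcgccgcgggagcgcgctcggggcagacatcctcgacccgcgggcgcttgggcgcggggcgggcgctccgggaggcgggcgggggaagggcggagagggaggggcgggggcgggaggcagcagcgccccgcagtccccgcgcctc
Wnt11: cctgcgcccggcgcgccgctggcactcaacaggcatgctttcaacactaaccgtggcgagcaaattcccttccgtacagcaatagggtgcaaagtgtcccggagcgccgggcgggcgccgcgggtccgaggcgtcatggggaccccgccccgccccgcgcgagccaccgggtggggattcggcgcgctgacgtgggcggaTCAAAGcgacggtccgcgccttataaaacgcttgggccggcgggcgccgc
Wnt5b: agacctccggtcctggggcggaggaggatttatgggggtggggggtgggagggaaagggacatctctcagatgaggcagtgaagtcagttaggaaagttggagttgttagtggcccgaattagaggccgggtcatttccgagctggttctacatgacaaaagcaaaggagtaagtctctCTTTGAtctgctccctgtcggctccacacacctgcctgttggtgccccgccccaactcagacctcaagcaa

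In vehicle-treated organoids, Wnt5b was the most abundant ligand gene. Levels are compared between genes as CPM per kilobase of exon (CPM/kb), since a longer transcript yields more reads. Wnt5b stood at 39.8 ± 14.9 CPM/kb in DMSO (SD, n = 3), and its lowest library lay above the highest library of every other ligand gene. Wnt5a (4.37 ± 0.871 CPM/kb) and Wnt7b (4.34 ± 1.51) followed and overlapped each other, and both lay above Wnt10a (1.63 ± 1.21). From Wnt10a downwards through Wnt9a (1.57 ± 0.287), Wnt4 (0.715 ± 0.693), Wnt6 (0.380 ± 0.129), Wnt11 (0.199 ± 0.117) and Wnt10b (0.140 ± 0.0825), each gene overlapped the next. Wnt7a had 0 counts in all 3 DMSO libraries, where 3 counts over the group, about the 95% upper limit for a count of 0 from counting error alone, would be 0.0589 CPM.

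At 3 µM the order was different. Wnt5b (11.7 ± 3.39 CPM/kb), Wnt10a (10.4 ± 3.71) and Wnt4 (8.41 ± 5.76) overlapped at the top, followed by Wnt7b (3.89 ± 1.31), Wnt5a (2.29 ± 1.32), Wnt9a (1.40 ± 1.57), Wnt7a (0.947 ± 0.779), Wnt11 (0.686 ± 0.573) and Wnt10b (0.431 ± 0.221), each of which overlapped the next. Wnt6 was lowest (0.126 ± 0.0436), below every library of Wnt10b. At 1 µM, Wnt5b (42.7 ± 10.9) remained apart at the top and Wnt7a (0.0173 ± 0.0179) apart at the bottom, and each gene between them overlapped its neighbour. At 1.5 µM, Wnt10a (5.71 ± 0.860), Wnt7b (4.77 ± 2.49), Wnt5a (3.55 ± 0.657) and Wnt4 (2.42 ± 1.18) formed a run of overlapping genes below Wnt5b (36.8 ± 6.09). A second run held Wnt9a (0.858 ± 0.197), Wnt10b (0.578 ± 0.205), Wnt11 (0.412 ± 0.122) and Wnt6 (0.327 ± 0.111), with Wnt7a (0.112 ± 0.100) below it.

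**Figure D1:**
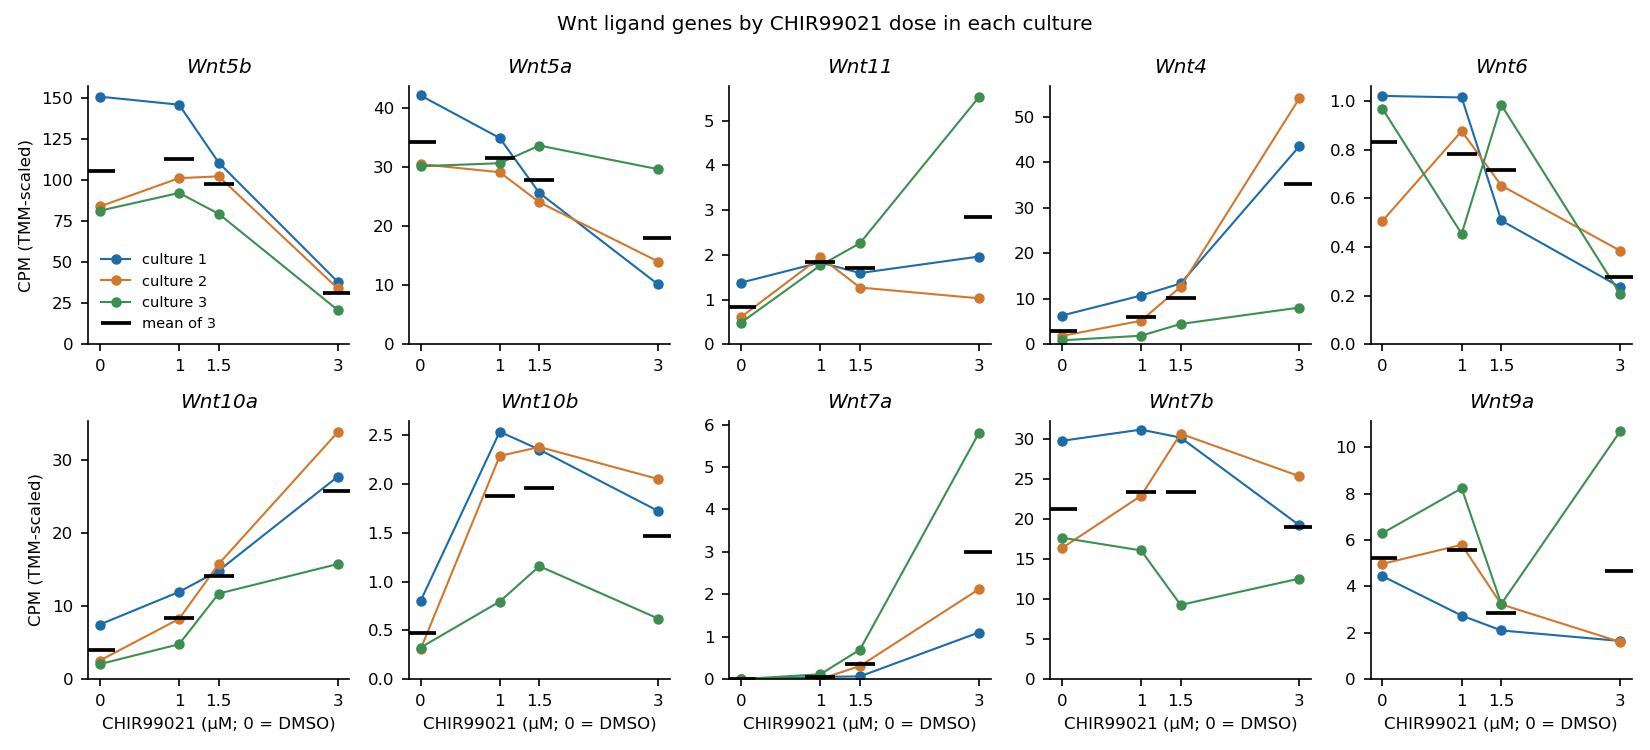
Level of each WNT ligand gene (CPM, linear axis from 0) against CHIR99021 dose in µM, with 0 for DMSO, 1 line per culture and a black bar for the mean of 3 libraries. Wnt4 and Wnt10a rose at every step in all 3 cultures, Wnt5b dropped between 1.5 and 3 µM in all 3, and culture 3 stood apart at 3 µM for Wnt5a, Wnt9a, Wnt11 and Wnt4.

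The design asks how the ligand genes respond as the pathway is driven harder. At 3 µM, 7 of the 10 passed the test against DMSO (edgeR's quasi-likelihood test on all 15316 genes that passed a filter on low counts, Benjamini-Hochberg adjusted p under 0.05). All 10 passed that filter, Wnt7a and Wnt6 only through libraries in which they were high (values given below). Wnt4, Wnt7a, Wnt10a and Wnt11 were higher, and Wnt5a, Wnt5b and Wnt6 were lower. Over all genes tested 57.5% were called in this comparison, 29.9% higher and 27.7% lower, so a count of 7 of 10 lies near the background. The median log2 fold change of the 10 was 0.69, the same with Wnt7a at the lower bound given below, against −0.03 over all genes tested. This median lies in a gap between Wnt7b (−0.16) and Wnt10b (1.55), so it stands for no single gene and for no shared shift. The main fit does not use the pairing of libraries by animal. Its biological coefficient of variation, a measure of spread, was 0.305, against 0.156 with the replicate number as a block. With that block, 8 of the 10 were called, against 68.9% of all genes. The number was 4 with only these 2 groups in the fit, where Wnt6 did not pass the filter, and 3 without culture 2. Shares of all genes are not given for these smaller fits. A general loss of calls cannot be told apart there from a loss among the ligand genes. The 3 µM and DMSO libraries did not overlap for 6 of the 10 genes, 3 higher and 3 lower, against 60.8% of all genes tested (30.9% higher and 29.9% lower). Library size alone in place of the scaling by trimmed mean of M values (TMM) moved the median of all genes from −0.03 to −0.23 and the split of calls to 22.2% higher and 35.3% lower, and fold changes here are relative to the TMM scale.

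The ligands best known for signalling without β-catenin are Wnt5a, its close relative Wnt5b, and Wnt11. Wnt5b (ENSMUSG00000030170, chromosome 6, 119432531 to 119544347) was at 151, 84.1 and 81.5 CPM in DMSO in cultures 1, 2 and 3, at 146, 101 and 92.3 at 1 µM, at 111, 102 and 79.6 at 1.5 µM, and at 38.2, 34.1 and 21.0 at 3 µM. The first 3 groups overlapped, and all libraries at 3 µM lay below all others. Its fold change at 3 µM was 0.294 (log2 −1.76 ± 0.31, SE, adjusted p = 0.000816), and the call held under every alternative tried. Within cultures the 3 µM level was 0.253, 0.406 and 0.257 of the DMSO level. At 1 and 1.5 µM its log2 fold changes were 0.10 (95% interval −0.56 to 0.76) and −0.11 (−0.77 to 0.54), so no difference was detectable there. With the block in edgeR they were 0.12 ± 0.14 and −0.07 ± 0.14, also not called (adjusted p = 0.654 and 0.698). The decrease lay in the last step, where the 3 µM level was 0.318 of the 1.5 µM level (log2 −1.65 ± 0.31, adjusted p = 0.00374). That step was not called without culture 2 (log2 −1.69, adjusted p = 0.107).

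Wnt5a (ENSMUSG00000021994, chromosome 14, 28504750 to 28527447) had 42.1, 30.5 and 30.1 CPM in DMSO, 34.9, 29.1 and 30.6 at 1 µM, 25.6, 24.01 and 33.6 at 1.5 µM and 10.1, 13.99 and 29.6 at 3 µM. Cultures 1 and 2 fell at every step, while culture 3 stayed within 29.6 to 33.6 CPM at all doses. The 3 µM libraries lay just below those of DMSO without overlap, at a fold change of 0.523 (log2 −0.93 ± 0.34, adjusted p = 0.0355). Within cultures 1, 2 and 3 the 3 µM level was 0.240, 0.459 and 0.983 of the DMSO level. The call was lost with only these 2 groups in the fit (adjusted p = 0.0951), without the DMSO library of culture 1 (log2 −0.76, adjusted p = 0.110), without the 3 µM library of culture 1 (−0.68, 0.0931) or 2 (−0.81, 0.112), and without all of culture 1 (−0.47, 0.308) or culture 2 (−0.86, 0.228). Without the 3 µM library of culture 3 it was larger (log2 −1.53, adjusted p = 0.000425). Culture 3 also had the highest summed fibroblast markers of the 3 µM libraries (4582 CPM against 178 and 978). It had the lowest squamous sum (2557 CPM) and the lowest Axin2 (52.4 CPM) there too. In DMSO the fibroblast sums were 1635, 7395 and 20549 CPM in cultures 1, 2 and 3, where Wnt5a was at 42.1, 30.5 and 30.1. The part of those cells in the Wnt5a values was not tested.

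Wnt11, which is known for cell movements in gastrulation and for kidney branching (ENSMUSG00000015957, chromosome 7, 98835112 to 98855195), was rare. It had 1.38, 0.609 and 0.485 CPM in DMSO, 1.83, 1.95 and 1.76 at 1 µM, 1.59, 1.27 and 2.26 at 1.5 µM and 1.96, 1.03 and 5.52 at 3 µM. Every culture was above its own DMSO level at each dose, but the DMSO and 3 µM groups overlapped. The fold change at 3 µM was 3.34 (log2 1.74 ± 0.60, adjusted p = 0.0298), with within-culture ratios of 1.42, 1.69 and 11.4. It rested on culture 3: without its 3 µM library the log2 fold change was 0.79 (adjusted p = 0.190), and without that whole culture 0.49 (0.423). The call was also lost without the DMSO library of culture 2 (1.56, 0.0920) or 3 (1.42, 0.107), without culture 2 (1.99, 0.0802), with only these 2 groups (1.70, 0.105) and with library size alone (1.56, 0.0522). Wnt11 shares 364 exon bases with Gm8398 on the opposite strand, Wnt5a shares 358 with Gm2670, and Wnt7b, given further on, shares 324 with AU022754. Whether counting used the strand is not given in the sources used here. Gm2670 and AU022754 held 101 and 301 counts over all libraries, against 6012 for Wnt5a and 4780 for Wnt7b.

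**Figure D2:**
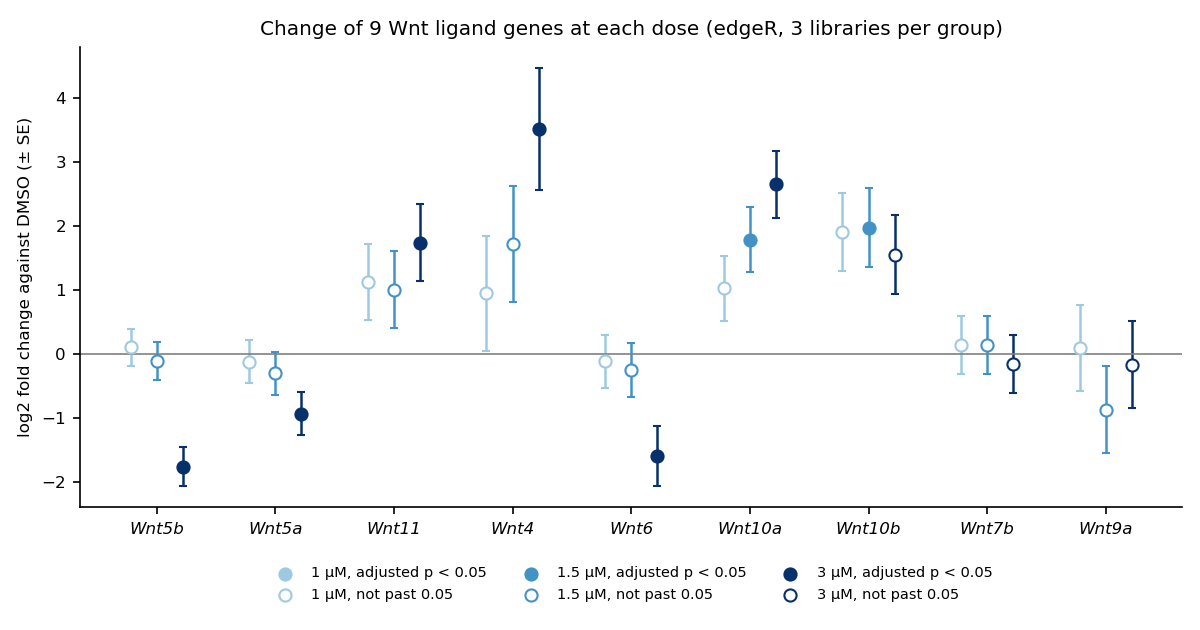
Log2 fold change against DMSO (± SE, edgeR, 3 libraries per group) for 9 ligand genes at 1, 1.5 and 3 µM; filled points passed an adjusted p of 0.05. Wnt7a is left out because all its DMSO libraries are at 0, and at 3 µM Wnt4 (3.52) and Wnt10a (2.65) had the highest values shown and Wnt5b (−1.76) the lowest.

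The ligands with the largest rises belong to the other ligand groups. Wnt4, which progesterone induces in hormone-sensing luminal cells and which drives side branching of the ducts (ENSMUSG00000036856, chromosome 4, 137277489 to 137299726), was at 6.31, 1.83 and 0.862 CPM in DMSO. It was at 10.7, 5.17 and 1.87 CPM at 1 µM, at 13.4, 12.6 and 4.46 at 1.5 µM and at 43.6, 54.2 and 8.07 at 3 µM. All 3 cultures rose at every step, and the groups overlapped at each pair of neighbouring doses but not between DMSO and 3 µM. Culture 3 was lowest in every group, and its 3 µM level was close to the DMSO level of culture 1. The fold change at 3 µM was 11.5 (log2 3.52 ± 0.96, adjusted p = 0.00992), with ratios of 6.91, 29.6 and 9.37 in cultures 1, 2 and 3. The call was lost only without culture 2 (log2 2.84, adjusted p = 0.174), among the alternatives tried. At 1.5 µM the log2 fold change of 1.72 ± 0.91 did not pass (adjusted p = 0.183) unless the replicate number was a block (0.00474), and the same held for 3 against 1.5 µM (1.79 ± 0.88, adjusted p = 0.149, with the block 0.00572). That last step was also called without culture 3 (1.89, 0.0345).

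Wnt10a, a ligand of hair follicle and tooth development (ENSMUSG00000026167, chromosome 1, 74791516 to 74804179), gave 7.47, 2.54 and 2.05 CPM in DMSO, 11.9, 8.24 and 4.77 at 1 µM, 14.8, 15.8 and 11.7 at 1.5 µM and 27.7, 33.8 and 15.7 at 3 µM. It also rose at every step in all 3 cultures, and from 1.5 µM its libraries lay above all DMSO libraries. It stood 3.45-fold above DMSO with 1.5 µM (log2 1.79 ± 0.51, adjusted p = 0.0267) and 6.29-fold with 3 µM (2.65 ± 0.52, 0.00170). Within cultures the ratio of 3 µM to DMSO was 3.71, 13.3 and 7.69. The 3 µM call was lost only without culture 2 (log2 2.18, adjusted p = 0.0733). The 1.5 µM call was lost with only these 2 groups (0.0559), without the DMSO library of culture 2 (0.107) or 3 (0.0855), without the 1.5 µM library of culture 1 (0.0689) or 2 (0.0721), and without culture 2 (0.308).

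Wnt10b, the ligand that marks the early mammary placode (ENSMUSG00000022996, chromosome 15, 98771753 to 98778150), had another shape. It was at 0.800, 0.305 and 0.323 CPM in DMSO, 2.54, 2.29 and 0.795 at 1 µM, 2.36, 2.38 and 1.16 at 1.5 µM and 1.73, 2.05 and 0.621 at 3 µM. Every culture was above its DMSO level at each dose, and every culture was lower at 3 than at 1.5 µM, a step that was not called (log2 −0.42, 95% interval −1.70 to 0.85). Against DMSO the 1 µM level was 3.75-fold (log2 1.91 ± 0.62, adjusted p = 0.256, with the block 0.0196) and the 1.5 µM level 3.93-fold (1.98 ± 0.62, 0.0375). The 3 µM level was 2.93-fold (1.55 ± 0.62, adjusted p = 0.0534, with the block 0.00385). The 3 µM value also passed in DESeq2 (0.0495), without the DMSO library of culture 1 (2.19, 0.0303), without the 1 µM library of culture 3 (0.0373), without the 3 µM library of culture 3 (0.0223) and without culture 3 (0.0162). The 1.5 µM call was lost with no filter (0.0504), without the DMSO library of culture 2 (0.127) or 3 (0.1247), the 1 µM library of culture 2 (0.0531), the 1.5 µM library of culture 1 (0.102) or 2 (0.103), the 3 µM library of culture 1 (0.0529), and without culture 1 (0.111) or 2 (0.348). These rest on few reads, with 3 to 18 counts per DMSO library and 9 to 32 at 3 µM.

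Wnt7a, known for patterning the female reproductive tract (ENSMUSG00000030093, chromosome 6, 91363981 to 91411363), appeared with dose. It had 0 counts in every DMSO library, 1, 0 and 2 at 1 µM, 1, 8 and 12 at 1.5 µM and 14, 33 and 84 at 3 µM in cultures 1, 2 and 3, or 1.098, 2.12 and 5.80 CPM at 3 µM. Culture 3 was highest at each CHIR99021 dose. Against 3 counts over the DMSO group, 1.5 µM gave a pooled level at least 6.04-fold higher, and 3 µM gave one at least 51.9-fold higher. The edgeR test was of the fitted changes, not of these bounds (adjusted p = 0.0457 at 1.5 µM and 0.00155 at 3 µM). Wnt7a passed the filter on low counts only through libraries in which it was high. Its calls against DMSO and between doses, and its slope, are thus no separate support for its rise. From 1.5 to 3 µM it rose 8.29-fold (log2 3.05 ± 0.89, adjusted p = 0.0344), by 17.2, 6.89 and 8.34 times in cultures 1, 2 and 3. The 3 µM call against DMSO held under every alternative tried.

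The other 2 calls of Wnt7a were less stable. Its 1.5 µM call was lost without any 1 of the 3 cultures (adjusted p = 0.102, 0.218 and 0.100 without cultures 1, 2 and 3) and without 8 single libraries, with adjusted p from 0.0547 to 0.0986. These were the DMSO libraries of cultures 1, 2 and 3, the 1 µM libraries of cultures 1 and 3, the 1.5 µM libraries of cultures 2 and 3 and the 3 µM library of culture 2. The step from 1.5 to 3 µM was not called with only these 2 groups (0.0606), without the 1 µM library of culture 1 (0.0517), the 1.5 µM library of culture 1 (0.0865) or 2 (0.111), the 3 µM library of culture 2 (0.0632) or 3 (0.0838), or without culture 1 (0.0990) or 2 (0.235).

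Wnt6 (ENSMUSG00000033227, chromosome 1, 74771892 to 74785322) lies 6.193 kb before Wnt10a on the same strand. At 3 µM their values went opposite ways from DMSO, with Wnt6 lower and Wnt10a higher in every culture. At 1 and 1.5 µM the log2 fold changes of Wnt6 were −0.12 and −0.25, not called (edgeR, adjusted p = 0.954 and 0.690). Wnt6 had 1.02, 0.508 and 0.969 CPM in DMSO, 1.02, 0.877 and 0.455 at 1 µM, 0.509, 0.653 and 0.985 at 1.5 µM and 0.235, 0.385 and 0.207 at 3 µM. The 3 µM libraries lay below all others, with only 3, 6 and 3 counts. Wnt6 passed the filter on low counts only through libraries of the other groups. Its call at 3 µM and its slope are thus no separate support for its fall. The fold change was 0.332 (log2 −1.59 ± 0.47, adjusted p = 0.0149), and ratios within cultures were 0.230, 0.758 and 0.214. It was not called without culture 1 (log2 −1.33, adjusted p = 0.140) or culture 3 (−1.35, 0.0636). From 1.5 to 3 µM the log2 change of −1.34 ± 0.47 did not pass (adjusted p = 0.0552), but it did with library size alone (−1.61, 0.0262) and without the 1 µM library of culture 3 (0.0496).

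Wnt7b and Wnt9a were not called in any comparison between groups. Wnt7b, a ligand of lung and brain vessel development (ENSMUSG00000022382, chromosome 15, 85535439 to 85581821), was at 29.8, 16.4 and 17.7 CPM in DMSO, 31.2, 22.9 and 16.1 at 1 µM, 30.2, 30.7 and 9.27 at 1.5 µM and 19.2, 25.3 and 12.6 at 3 µM. The groups overlapped throughout, and the 3 µM interval of the log2 fold change, −1.18 to 0.85, leaves room for a change of either sign. Wnt9a, a ligand of joint formation (ENSMUSG00000000126, chromosome 11, 59306928 to 59333552), was at 4.44, 4.98 and 6.30 CPM in DMSO, 2.74, 5.80 and 8.24 at 1 µM, 2.101, 3.23 and 3.24 at 1.5 µM and 1.65, 1.60 and 10.7 at 3 µM. Cultures 1 and 2 were at 0.371 and 0.322 of their DMSO level at 3 µM, while culture 3 was at 1.70 times its own. The log2 fold change at 3 µM was −0.17 (95% interval −1.69 to 1.34, adjusted p = 0.842). Without the 3 µM library of culture 3 it was −1.71 (adjusted p = 0.00939), and without all of culture 3 it was −1.54 (0.0186). At 1.5 µM all 3 cultures were below DMSO without overlap, yet the log2 fold change of −0.87 (−2.40 to 0.66) did not pass (adjusted p = 0.372).

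**Figure D3:**
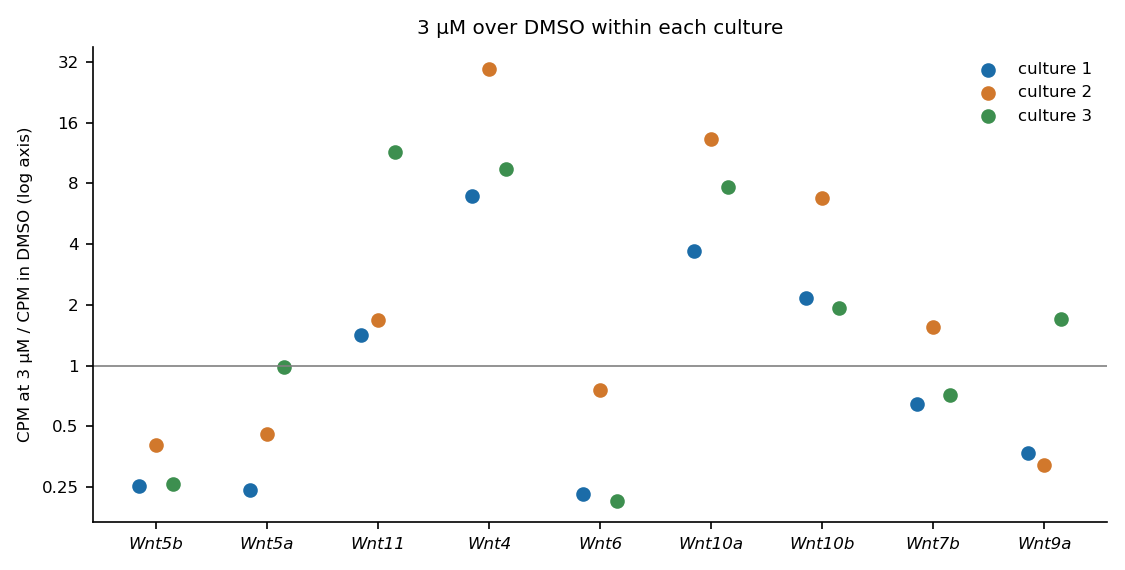
Ratio of the 3 µM level to the DMSO level (CPM over CPM, log axis) within cultures 1, 2 and 3, for 9 ligand genes, with a line at 1; Wnt7a is left out since its DMSO level is 0. All cultures lie above 1 for Wnt4, Wnt10a, Wnt10b and Wnt11 and below 1 for Wnt5b, Wnt5a and Wnt6, and culture 3 lies apart from the others for Wnt5a, Wnt11 and Wnt9a.

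At the lower doses fewer ligand genes passed. At 1 µM, 0 of the 10 were called in edgeR and 0 in DESeq2, against 0.242% of all genes called in edgeR. At an unadjusted p under 0.05 it was 1 of the 10 (Wnt10b) and 11.7% of all genes. With the block 1 of the 10 was called at 1 µM, again Wnt10b, against 5.61% of all genes. At 1.5 µM, 3 of the 10 were called (Wnt7a, Wnt10a and Wnt10b), all higher, against 27.3% of all genes, 15.4% higher and 11.8% lower. The median log2 fold change of the 10 there was 0.57, also with Wnt7a at its bound, against −0.002 over all genes. It too lies in a gap, between Wnt7b (0.13) and Wnt11 (1.01). With the block the number at 1.5 µM was 4, which adds Wnt4, against 46.7% of all genes. The number called at 1.5 µM fell to 0 without the DMSO library of culture 2 or 3, without the 1.5 µM library of culture 2 and without culture 2, and was 1 with only these 2 groups, without the 1.5 µM library of culture 1 or without culture 1. Shares of all genes are again not given for these fits.

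Between neighbouring doses, 0 of the 10 were called between 1 and 1.5 µM in edgeR and 0 in DESeq2, against 5.43% of all genes called in edgeR. At an unadjusted p under 0.05 it was 0 of the 10 and 21.5% of all genes. The block called 1 there, Wnt7a (adjusted p = 0.0364), against 21.9% of all genes. Between 1.5 and 3 µM, 2 of the 10 were called, Wnt7a higher and Wnt5b lower, against 29.7% of all genes (17% higher and 12.7% lower; 6.86% and 25.2% with library size alone). The filter limit given for Wnt7a holds for its call here too. With the block the number called was 3, with Wnt4 added, against 46.7%. Without culture 3 it was 4, since Wnt4 (log2 1.89) and Wnt5a (−1.06, adjusted p = 0.0145) passed as well, and without culture 2 it was 0. It was 1 (Wnt5b) with only these 2 groups, without the 1 µM library of culture 1, the 1.5 µM library of culture 1 or 2, the 3 µM library of culture 2, or without culture 1. Wnt5a also passed without the 3 µM library of culture 3 (−1.19, 0.00376). For the counts from these smaller fits, shares of all genes are not given.

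A slope over dose, with DMSO at 0, was called for 7 of the 10, rising for Wnt4, Wnt7a, Wnt10a and Wnt11 and falling for Wnt5a, Wnt5b and Wnt6. Over all genes 58.2% had a called slope, 30.2% rising and 28% falling, so this share also lies near the background. The log2 slope per µM was 1.19 ± 0.26 for Wnt4 (adjusted p = 0.00179), 0.88 ± 0.16 for Wnt10a (0.000622) and 0.52 ± 0.19 for Wnt11 (0.0305). It was −0.63 ± 0.15 for Wnt5b (adjusted p = 0.00401), −0.52 ± 0.16 for Wnt6 (0.0168) and −0.32 ± 0.11 for Wnt5a (0.0209). For Wnt7a the slope had an adjusted p of 5.58e-05, and no size is given because DMSO is at 0. With the block the slope of Wnt11 did not pass (0.0510). Without culture 2 those of Wnt4 (0.0664) and Wnt5a (0.138) were lost, and without culture 1 those of Wnt5a (0.231) and Wnt6 (0.164). Without culture 3 those of Wnt6 (0.0595) and Wnt11 (0.656) were lost and that of Wnt9a was called (−0.54, 0.0113), as it was without the 3 µM library of culture 3 alone (−0.61, 0.00982).

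Single libraries mattered for the slopes too. That of Wnt5a was lost without the DMSO library of culture 1 (0.0552) or the 3 µM library of culture 1 (0.0559) or 2 (0.0733). That of Wnt6 was lost without the 3 µM library of culture 1 (0.0553) or 3 (0.0504). That of Wnt11 was lost without the DMSO library of culture 2 (0.0741) or 3 (0.0809) or the 3 µM library of culture 3 (0.328), and with library size alone (0.0759). The slopes of Wnt5b, Wnt7a and Wnt10a were called under every alternative tried.

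The ligand genes also differed between the 3 cultures over all doses. In a model with group and culture, 6 of the 10 were called for culture (Wnt4, Wnt5b, Wnt7a, Wnt7b, Wnt10a and Wnt10b), against 28.8% of all genes tested. Wnt4 (adjusted p = 0.00379) was lowest in culture 3 in every group, and so were Wnt5b (0.00758) and Wnt10a (0.0423). Wnt10b was lowest in culture 3 at every CHIR99021 dose (0.0111). Wnt7a was highest in culture 3 at every CHIR99021 dose (0.0182). Wnt7b was highest in culture 1 in DMSO and at 1 µM and in culture 2 at the 2 other doses (0.0420). The number called fell to 2, Wnt4 and Wnt5b, without the 1 µM library of culture 3, and to 3 without its 3 µM library, with no share of all genes given for those fits. The calls of Wnt4 and Wnt5b held in all settings run for this test. That of Wnt7b was lost with library size alone (adjusted p = 0.0501), with no filter (0.0730), without the DMSO library of culture 1 (0.0969), the 1 µM library of culture 1 (0.101), 2 (0.0644) or 3 (0.0935), the 1.5 µM library of culture 1 (0.0840) or 3 (0.0899) and the 3 µM library of culture 2 (0.0561) or 3 (0.0663). That of Wnt10a was lost without the 1 µM library of culture 1 (0.109), 2 (0.0740) or 3 (0.118), the 1.5 µM library of culture 2 (0.0714), the DMSO library of culture 3 (0.108) or the 3 µM library of culture 3 (0.0872). That of Wnt7a was lost without the 1.5 µM library of culture 1 (0.0507) or 3 (0.0547), the 3 µM library of culture 1 (0.0683) or 3 (0.0881) or the 1 µM library of culture 3 (0.0525), and that of Wnt10b without the 1 µM library of culture 3 (0.0593). A slope that differs between cultures was called for 0 of the 10 and for 0% of all genes tested, with 3 of the 10 and 8.03% of all genes at an unadjusted p under 0.05 in edgeR. The 3 were Wnt5a (edgeR's quasi-likelihood test, adjusted p = 0.294), Wnt4 (adjusted p = 0.515) and Wnt11 (adjusted p = 0.556), and DESeq2 was not run for this test. The slopes fitted within cultures 1, 2 and 3 were −0.71, −0.39 and −0.01 per µM on the log2 scale for Wnt5a, 0.93, 1.62 and 1.04 for Wnt4, and 0.14, 0.13 and 1.04 for Wnt11.

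**Figure D4:**
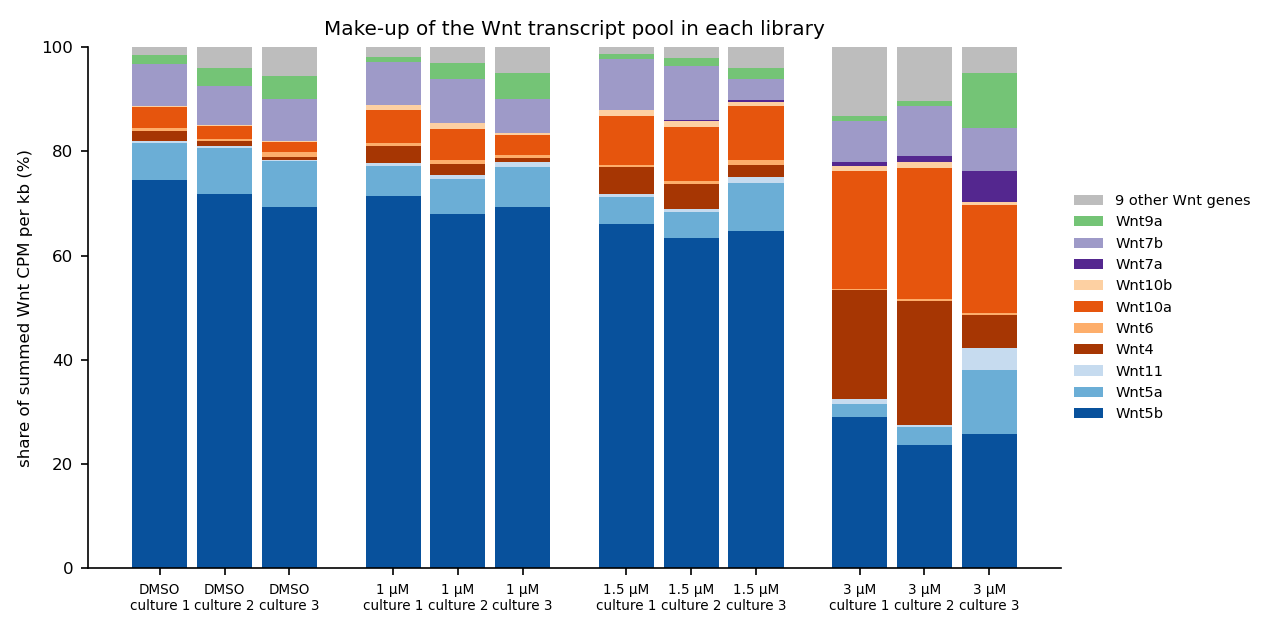
Share of each ligand gene in the summed CPM per kb of all 19 Wnt genes (%), 1 bar per library, by dose and culture, with the 9 other Wnt genes in grey. Wnt5b held 69.4 to 74.5% in the DMSO libraries and 23.7 to 29.0% at 3 µM, where Wnt10a held 20.7 to 25.2% and Wnt4 from 6.26% in culture 3 to 23.8% in culture 2.

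The make-up of the Wnt transcript pool is a description of the same values. Summed over the 19 Wnt genes, the pool was 54.9 ± 18.6 CPM/kb in DMSO, 61.2 ± 14.2 with 1 µM CHIR99021, 56.9 ± 9.14 with 1.5 µM and 44.9 ± 12.5 with 3 µM (SD, n = 3), and the groups overlapped. The 10 ligand genes made up 96.3% of it in DMSO and 90.5% at 3 µM. Wnt5b held 71.9 ± 2.53% of the pool in DMSO, then 69.5 ± 1.70% and 64.7 ± 1.40% with 1 and 1.5 µM, and 26.1 ± 2.65% with 3 µM. Over the same doses Wnt10a went from 2.72 ± 1.09% through 5.35 ± 1.31% and 10.1 ± 0.496% to 22.8 ± 2.25%, and Wnt4 from 1.14 ± 0.763% through 2.13 ± 1.21% and 4.09 ± 1.56% to 17.0 ± 9.41%. Wnt7b had 7.89 ± 0.300%, 7.70 ± 1.01%, 8.03 ± 3.43% and 8.59 ± 0.851% over these doses, with 4.08 to 10.3% among the 1.5 µM libraries, culture 3 lowest. In culture 3 at 3 µM, Wnt5a held 12.3%, Wnt9a 10.5% and Wnt7a 5.94%, the highest share each reached in any library.

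Among the 9 other Wnt genes, 4 passed the filter on low counts. Wnt3a, which lies 16.2 kb from Wnt9a on the opposite strand, had 0 counts in DMSO and 23, 28 and 31 at 3 µM. That is a pooled level at least 32.5-fold higher. Wnt3a passed the filter only through its 3 µM libraries, and the edgeR test of its fitted change gave an adjusted p of 0.000368. Wnt9b (log2 −2.55 ± 0.68, adjusted p = 0.00905) and Wnt2 (8, 17 and 25 counts in DMSO and 1, 0 and 1 at 3 µM, adjusted p = 0.00848) were lower, and Wnt2b (−0.71 ± 0.31, 0.0681) did not pass. Wnt2 passed the filter only through libraries of the other groups, so its call is no separate support for its fall. Wnt3 did not pass the filter, with 0 counts in every DMSO library and 209, 223 and 5 at 3 µM, which was at least 173-fold higher over the group without a test. The 5 counts came from culture 3. Wnt16 was not tested and had 3 to 23 counts per library. The other 3, Wnt1, Wnt8a and Wnt8b, had at most 5 counts in any library.

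Genes that process, carry and receive WNT ligands are given at 3 µM against DMSO, beside shares of 29.9% higher and 27.7% lower over all genes and, with the replicate block, 68.9% called. Of 14 tested genes of ligand processing and secretion, 4 were higher and 4 lower, with a median log2 fold change of −0.08, a share near the background (5 and 5 with the block). Sdc1, a heparan sulfate proteoglycan, was at 209 ± 28.3 CPM in DMSO and 1017 ± 381 at 3 µM (log2 2.28 ± 0.22, adjusted p = 2.19e-05), and Vps35, a retromer subunit that recycles the ligand carrier Wls, rose from 226 ± 9.21 to 366 ± 29.8 (0.69 ± 0.08, 6.96e-05). Trabd2b, a protease that cleaves WNT ligands, fell from 48.0 ± 17.2 to 11.2 ± 3.88 CPM (log2 −2.09 ± 0.36, adjusted p = 0.000818), and the glypican gene Gpc6 from 72.8 ± 8.30 to 18.7 ± 12.9 (−1.96 ± 0.41, 0.00240). Of 17 receptor genes, 3 were higher and 8 lower, with a median of −0.69 (3 and 9 with the block). Fzd10 (log2 4.02 ± 0.45, adjusted p = 4.84e-05) and Fzd6 (0.94 ± 0.29, 0.0186) had the largest rises and Fzd4 (−3.38 ± 0.30, 1.27e-05) and Fzd9 (−2.97 ± 0.73, 0.00595) the largest falls among those called with at least 50 counts on average. All 4 encode Frizzled receptors.

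Of 13 tested β-catenin feedback genes, 5 were higher and 2 lower, with a median log2 fold change of 0.81 (7 and 2 with the block), beside the same shares of all genes, 29.9% higher and 27.7% lower. Axin2, a scaffold of the β-catenin destruction complex, went up by 4.92 ± 0.65 on the log2 scale (adjusted p = 0.000147) and the receptor gene Tnfrsf19 by 4.27 ± 0.74 (0.000803). Lgr5, a receptor for R-spondins, fell (log2 −9.34 ± 0.45, adjusted p = 8.92e-07), as did Bambi (−0.42 ± 0.15, 0.0313). Of 16 tested genes of planar polarity and other β-catenin-independent signalling, 5 were higher and 3 lower, with a median of 0.15 (7 and 4 with the block), which is near or below those shares. The core polarity genes Vangl2 (log2 1.28 ± 0.11, adjusted p = 1.24e-05) and Celsr1 (1.21 ± 0.36, 0.0157) were higher, and Daam2 (−2.20 ± 0.46, 0.00246), which encodes a formin, and Invs (−1.28 ± 0.23, 0.000862), which encodes inversin, were lower.

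For the called ligand genes with the largest and the smallest fitted slope, Wnt7a and Wnt5b, the genes with the most similar pattern were listed from 12433 candidates by Pearson correlation of log2 CPM over the 12 libraries, given as a description. For Wnt7a they were Slc39a6 (r = 0.984), Prl8a9 (0.981) and Npepps (0.977), and for Wnt5b they were Sun2 (0.990), Zfp827 (0.986) and Ago4 (0.980). The libraries share the dose, so many genes that move with dose correlate in this way. Sun2 was at 211 ± 26.5 CPM in DMSO and 107 ± 25.3 at 3 µM, and Slc39a6 at 48.8 ± 3.02 and 106 ± 17.2. Prl8a9 had 0 counts in DMSO, as Wnt7a did, and 38.8 ± 57.1 CPM at 3 µM.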

How the data were processed

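Whole-number read counts for each Ensembl gene were deposited, made per the submitters' processing notes with TopHat2 2.1, Bowtie 1.1.0 and HTSeq on GRCm38 (mm10); those notes also list DESeq2. The labels' protocols give polyA-selected, stranded TruSeq libraries on a HiSeq instrument. The annotation release and the strand setting of counting are not given in the sources used here. The authors also deposited a log2 table, in which each entry is log2(c + 1) with c the count per 10 M (0 differed on recomputing), so the counts were used throughout. Of the gene IDs 24902 are in GENCODE M21, 95.1% of them starting within 1000 bp of the deposited start, and exon lengths and overlaps come from that release.

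Genes were filtered with filterByExpr and scaled by TMM in edgeR 4.0.16 (R 4.3.3), with a quasi-likelihood model of 4 group means over 12 libraries, two-sided tests, and Benjamini-Hochberg adjustment over 15316 genes. CPM use TMM-scaled totals. No molecular identifiers are described, so floors of 3 counts over a group (about the 95% upper limit for a count of 0), and the folds of "at least" a size that rest on them, cover counting error only. The script was tested on simulated data. Replicate numbers pair libraries, since each number is 1 animal, and the main model left this pairing out. Deviations from group means correlated at 0.177 to 0.840 in 18 same-number pairs (median 0.505). In 36 pairs of different numbers they correlated at −0.728 to 0.288 (median −0.212). Alternatives were the replicate number as a block, library size alone, relative log expression (RLE) factors, no filter, 2 groups only, DESeq2 1.42.0, and leaving out each library or culture. When a culture was left out, 2 libraries remained per group. No 36-base sequence of a member occurs in another Wnt gene's transcripts.

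The ligand genes, pathway lists and markers were chosen with earlier results of these data known. All 10 ligand genes are named. Pathway genes named are up to 2 per direction with the largest change at 3 µM among those called with at least 50 counts on average.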

Additional observations from a re-analysis of the deposited data

How the results depend on the processing

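Of 60 signed results (10 genes, 6 comparisons), 19 were called, and 5 of these kept call and direction in every alternative tried: Wnt5b and Wnt7a at 3 µM, and the slopes of Wnt5b, Wnt7a and Wnt10a. None of the 19 changed sign. The calls of Wnt7a and Wnt6 rest on genes that passed the filter only through libraries in which they were high. Of the 41 not called, 9 were called in some setting and 19 changed sign in some setting; the causes were not tested. With only the 2 groups in the fit, 1 gene was called at 1.5 µM, 1 between 1.5 and 3 µM and 4 at 3 µM. The replicate block called 1 at 1 µM and 1 between 1 and 1.5 µM. Over fits that left out a library or a culture, the number called was 0 to 3 at 1.5 µM, 0 to 4 between 1.5 and 3 µM, 3 to 8 at 3 µM (3 without culture 2) and 2 to 6 between cultures. No share of all genes is given beside these counts, nor for the fits of only 2 groups. The leave-out fits of the dose comparisons did not use the block. Sign changes under other settings were Wnt9a at 1 µM with the block (log2 −0.030) and Wnt7b between 1 and 1.5 µM with no filter (0.0063). In the same leave-out fits, log2 changes at 1 µM against DMSO ran from −0.43 to 0.24 for Wnt6, −0.29 to 0.42 for Wnt9a, −0.23 to 0.059 for Wnt5a, −0.13 to 0.45 for Wnt5b and −0.13 to 0.46 for Wnt7b. At 1.5 µM they ran from −0.53 to 0.094 for Wnt6, −0.31 to 0.24 for Wnt5b and −0.27 to 0.51 for Wnt7b. At 3 µM they ran from −1.71 to 0.22 for Wnt9a and −0.58 to 0.16 for Wnt7b. From 1 to 1.5 µM they ran from −0.68 to 0.28 for Wnt6, −0.34 to 0.013 for Wnt5b, −0.26 to 0.38 for Wnt7b, −0.29 to 0.34 for Wnt10b and −0.41 to 0.10 for Wnt11. From 1.5 to 3 µM they ran from −0.81 to 1.21 for Wnt9a and −0.19 to 1.15 for Wnt11. Slopes ran from −0.61 to 0.049 for Wnt9a and −0.21 to 0.046 for Wnt7b. The culture tests were not run with DESeq2 or without a whole culture. Depth limits Wnt6, Wnt7a, Wnt10b and Wnt11 most, with at most 84 counts in any library.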
